A study of Mus musculus with 72 samples.

Results

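The hippocampus of untrained mice was compared between mid light (CC4) and early light (CC30), 2 times of day within the phase in which mice mostly rest. The members are the 9 arrays labelled as 4 h controls and the 9 labelled as 0.5 h controls, 18 of the 72 arrays of the series, each from both hippocampi of 1 mouse. All were male C57BL/6J mice, 2 months old, housed singly under 12 h of light with lights on at 7 am (ZT0). CC30 and CC4 mice were handled on several days but never conditioned, and they were dissected at the hours matching 0.5 h and 4 h after the ZT3 training of other mice. For comparison, FC4 and FC24 mice had received a foot shock in a chamber 4 h and 24 h earlier. FC4 shares its clock hour with CC4, and FC24 was taken at about the clock time of CC30. No FC array enters CC4 against CC30, but in trained mice the hour and the time since training cannot be told apart. CC12 mice were untrained and dissected 12 h after the training hour, in the dark.

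Values are log2 signals of probe sets, groups of probes that report a transcript, after subtraction of the first principal component over all arrays (PC1). Calls were made in limma with a two-sided test over all 35556 probe sets and a threshold of 0.1 on the p adjusted after Benjamini and Hochberg. Every adjusted p below is from this test. The number of arrays limits precision, and the median standard error of a log2 difference between CC4 and CC30 was 0.054. Markers of neurons averaged between 11.19 and 11.27 per mouse in both groups, and those of dentate granule, CA1 and CA3 neurons were also high, between 7.97 and 8.91.

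Several pathways with known daily rhythms are relevant here. In the clock loop, CLOCK and BMAL1 bind E-box motifs and switch on period genes and repressors such as Ciart, which feed back on them. Body temperature of mice falls during rest, and Cirbp and Rbm3 encode RNA-binding proteins that rise under mild cold, whereas heat shock chaperones fold proteins under heat. Chaperones of the endoplasmic reticulum (ER) fold secreted and membrane proteins and are switched on through the ER stress element, bound by NF-Y and ATF6.

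Promoter sequences of genes described below come from RefSeq, build GRCm38.p6, as windows of 300 bases that run from 250 before to 50 after the start of a gene, on the gene's strand. They are shown as examples of motifs of ER, clock and cold genes, and a match is a description of letters only. The window of Hspa5 (chr2:34771840-34772139, plus strand) has the ER stress element, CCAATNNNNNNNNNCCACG, with its conserved ends in capitals. The element was searched on both strands and lies in 39 of 32851 promoters (0.1%). The window of Ciart (chr3:95882179-95882478, minus strand) holds 3 E-boxes, CACGTG, in capitals, a motif found in 7.2% of all promoters. The window of Cirbp (chr10:80167589-80167888, plus strand) holds the mild cold response element, TCCCCGCC, in capitals, found in 5.4% of all promoters on either strand. Neither motif was limited to the genes it is shown for. The E-box lay in 6 of 28 clock windows and 3 of 18 ER chaperone windows. The mild cold response element lay in 1 of 4 cold windows, 6 of 30 heat shock windows and 4 of 28 clock windows.
Hspa5: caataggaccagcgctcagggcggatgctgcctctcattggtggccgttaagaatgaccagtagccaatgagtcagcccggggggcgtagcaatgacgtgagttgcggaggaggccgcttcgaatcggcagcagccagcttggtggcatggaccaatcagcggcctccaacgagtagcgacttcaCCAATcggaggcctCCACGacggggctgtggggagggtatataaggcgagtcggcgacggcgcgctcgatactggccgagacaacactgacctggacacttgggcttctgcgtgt
Ciart: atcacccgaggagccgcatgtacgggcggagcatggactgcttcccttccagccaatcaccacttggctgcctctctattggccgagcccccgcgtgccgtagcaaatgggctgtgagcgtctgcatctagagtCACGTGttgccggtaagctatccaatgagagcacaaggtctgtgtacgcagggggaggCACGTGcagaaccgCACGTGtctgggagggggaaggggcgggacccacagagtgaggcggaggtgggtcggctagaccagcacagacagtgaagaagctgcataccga
Cirbp: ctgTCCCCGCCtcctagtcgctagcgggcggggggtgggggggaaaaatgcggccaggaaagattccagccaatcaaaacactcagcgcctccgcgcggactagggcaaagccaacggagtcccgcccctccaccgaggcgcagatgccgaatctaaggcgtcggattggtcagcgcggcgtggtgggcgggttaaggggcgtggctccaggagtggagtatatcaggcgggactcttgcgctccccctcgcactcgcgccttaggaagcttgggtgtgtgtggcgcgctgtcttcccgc

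The ER stress element was found in 7 of the 15 ER chaperone genes with a promoter in the table, among 19 on the array. The matched stretches are given in the orientation of the motif, with CCAAT and CCACG in capitals, and they differ only in the bases between.
Hspa5: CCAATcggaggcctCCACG
Pdia6: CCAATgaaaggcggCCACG
Creld2: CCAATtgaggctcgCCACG
Calr: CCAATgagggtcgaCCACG
Hsp90b1, first match: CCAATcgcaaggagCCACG
Hsp90b1, next match: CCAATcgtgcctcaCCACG
Canx: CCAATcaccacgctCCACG
Dnajc3: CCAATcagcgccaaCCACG
The first base of the match lay at -65 from the start in Hspa5 and at -98 in Pdia6. The window of Sdf2l1 held no match. Of the 7 genes with a match, only Hspa5 and Pdia6 were called in CC4 against CC30, both lower. Canx had a difference of -0.01 (adjusted p = 0.99) and Dnajc3 one of -0.06 (adjusted p = 0.894). Whether the element goes with a change was not tested. Of 30 windows of heat shock genes, 12 held GAANNTTC, the core unit bound by heat shock factor, against 7.9% of all promoters, and 0 held the ER stress element.

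CC4 and CC30 differed in 26 of 35556 probe sets (0.0731%), of which 9 were higher in CC4 (0.0253%) and 17 lower (0.0478%). At an unadjusted p under 0.05, 2209 differed. The 26 hold 18 probe sets with 1 gene symbol, for 16 genes, and 8 with several symbols or none. 6 of these 8 carry identical values, so that 21 distinct profiles were called. A probe set with 2 symbols was among the 8 and is not named here. It rose by 0.32 ± 0.06 (adjusted p = 0.0967), and in trained mice by 0.38 ± 0.05 (adjusted p = 0.00489). Inmt, Ciart, Pla2g4e, Cirbp, Rbm3 and Cemip2 rose, and Ifi203, Adam8, Cldn5, Hspa5, Pdia6, Kdm7a, Plpp4, Sox11, Gramd3 and Mlec fell. With identical probe sets counted once, 12 were called, 10 of them of named genes, and the 8 others had adjusted p of 0.117 to 0.118. These were Ifi203, Cemip2, Gramd3, Ciart, Hspa5, Mlec, Plpp4 and Pdia6. With the replicate number fitted as a block, 0 probe sets were called (smallest adjusted p = 0.225). What these numbers stand for is not given in the labels. When each of the 18 mice was left out in turn, Hspa5 was called in 2 of the 18 refits, Pdia6 in 3 and Ciart in 4, whereas Cirbp, Rbm3, Cldn5, Inmt and Kdm7a were called in all 18. With the methods' t-test and its local false discovery rates, 12 probe sets were called and 4 of the 18 named ones passed, Kdm7a, Adam8, Cldn5 and Sox11, whereas Cirbp (rate 0.192), Rbm3 (0.225 to 0.272), Pla2g4e (0.239) and Inmt (0.326) did not.

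The choroid plexus, which secretes cerebrospinal fluid and lies against the hippocampus, was represented unequally among mice by its marker genes. The mean of 12 of them, Ttr among them, lay between 5.10 and 6.40 in CC30, with a median of 5.37, and between 5.25 and 6.90 in CC4, with a median of 5.40. It was above 6 in 1 CC30 and 3 CC4 mice, and in 2 FC24, 2 FC4 and 3 CC12 mice. Of these 11 mice, 10 were replicates 1 to 3 of their groups, and what the replicate numbers stand for is not given in the labels. All 12 markers had positive log2 differences between CC4 and CC30 (0.12 to 1.09, median 0.357), and 0 passed. In bulk tissue, more cells of a type and more RNA per cell cannot be told apart. Without the mice above 6, 0 probe sets were called between CC4 and CC30 (1935 at an unadjusted p under 0.05, smallest adjusted p = 0.195), while all 18 named probe sets kept their direction, with values for several given below. The part of these markers in the results was not tested.

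**Figure D1:**
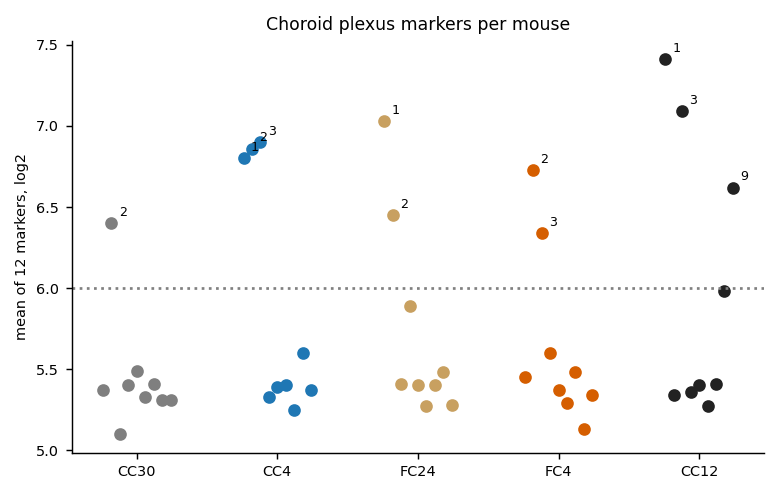
Mean log2 value of 12 choroid plexus markers in each mouse of 5 groups, with 9 points a group in replicate order. The dotted line is at 6, and replicate numbers mark the mice above it: 1 in CC30, 3 in CC4, 2 in FC24, 2 in FC4 and 3 in CC12.

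The cold-inducible genes Cirbp and Rbm3 were higher in CC4. Cirbp ranged from 8.28 to 8.67 in CC30 mice, with a median of 8.62, and from 8.73 to 9.00 in CC4 mice, with a median of 8.90. The groups did not overlap, which held for 17 of all probe sets (0.0478%). Cirbp rose by 0.35 ± 0.05 (SE, n = 9 a group, log2), 1.27-fold (adjusted p = 0.0202), and by 0.36 without the mice of high choroid plexus markers. In trained mice the difference was 0.22 ± 0.06 (adjusted p = 0.284), and its median was 8.79 in FC4 and 8.49 in FC24. In CC12 mice its median was 8.53.

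Rbm3 has 3 probe sets, which may read near-identical copies and count here as 1 gene. The brightest ran from 10.08 to 10.44 in CC30, with a median of 10.36, and from 10.46 to 10.76 in CC4, with a median of 10.63, again without overlap. It rose by 0.29 ± 0.05 (adjusted p = 0.0202), and the 2 others by 0.32 and 0.30. Rbm3 also rose in trained mice, by 0.29 ± 0.05 (adjusted p = 0.0302). In the dark-phase CC12 mice, Rbm3 had a median of 10.67, near its CC4 level, and Cirbp one near its CC30 level. Of the 5 members of the list of cold-inducible and temperature-sensitive genes, Clk1, Clk4 and Rtn3 had differences between -0.024 and -0.005 and did not pass. Clk1 and Clk4 are splicing kinases whose activity responds to temperature.

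The clock gene Ciart, a repressor of CLOCK and BMAL1, rose from CC30 to CC4. Its called probe set lay between 6.32 and 6.92 in CC30, with a median of 6.67, and between 6.79 and 7.35 in CC4, with a median of 7.14, and 7 of 9 CC4 mice were above all CC30 mice. The increase was 0.43 ± 0.08 (adjusted p = 0.0967), and 0.34 without the mice of high choroid plexus markers. A second probe set rose by less, 0.27 ± 0.07, and did not pass (adjusted p = 0.396). In trained mice, the first had 0.44 ± 0.09 and did not pass (adjusted p = 0.118), whereas the second rose by 0.45 ± 0.07 (adjusted p = 0.0228), so that no probe set of Ciart was called in both comparisons. In CC12 the first had a median of 7.01.

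Of 22 clock genes on the array, each read with its brightest probe set, 0 passed in either direction in untrained mice. For Ciart this was the second probe set above, not the called one. The median of the list was -0.001 against 0.002 over all probe sets. Per1, of the negative limb, had 0.12 ± 0.05 (adjusted p = 0.724) in untrained mice and rose by 0.15 ± 0.03 in trained mice (adjusted p = 0.0629). Nr1d2, a repressor of Bmal1, had 0.10 (adjusted p = 0.632), and 0.01 in a second probe set (adjusted p = 0.996). Arntl, which encodes BMAL1, had -0.06, Per2 -0.05 and Per3 -0.01. Nr1d1 and Dbp have no probe set with a single symbol and are not described by name here. Probe sets with several symbols were tested but not assigned to a gene.

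Of 19 ER chaperones on the array, Hspa5 and Pdia6 fell in CC4 and 0 rose, with 12 of the 19 differences below 0 and 7 above. Over all probe sets, 0.0478% were called lower and 48.6% lay below 0. Hspa5, the main ER Hsp70, ranged from 10.01 to 10.48 in CC30, with a median of 10.18, and from 9.74 to 10.11 in CC4, with a median of 9.91. The groups overlapped, with 7 of 9 CC4 mice under all CC30 mice. It fell by 0.30 ± 0.06 on the log2 scale (adjusted p = 0.0967), and by 0.31 without the mice of high choroid plexus markers. In trained mice the difference was -0.21 ± 0.06 and did not pass (adjusted p = 0.284). In CC12, Hspa5 was at a median of 10.47, above all CC4 mice.

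Pdia6, a protein disulfide isomerase, ran from 8.07 to 8.42 in CC30 and from 7.81 to 8.11 in CC4, and 7 of 9 CC4 mice were under all CC30 mice. It fell by 0.25 ± 0.05 (adjusted p = 0.0967), and had -0.14 ± 0.04 in trained mice (adjusted p = 0.366). Sdf2l1, a member of ER chaperone complexes, had medians of 8.16 and 7.89, and its difference of -0.27 ± 0.06 missed the threshold (adjusted p = 0.119). Sdf2l1 fell in trained mice by 0.31 ± 0.06 (adjusted p = 0.0984). Mlec, an ER lectin outside the list, fell by 0.17 ± 0.03 in untrained mice (adjusted p = 0.0967), and its second probe set had -0.13 (adjusted p = 0.557). The median of the ER chaperones was -0.057 against 0.002 over all probe sets. Calr had -0.11 (adjusted p = 0.482) and Hsp90b1 -0.11 (adjusted p = 0.632). Of 15 genes of the unfolded protein response, 0 passed and the median was -0.023.

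Of 25 heat shock genes, 0 passed and 20 lay below 0, with a median of -0.045. Of all probe sets, 48.6% lay below 0. Hspb1, a small heat shock protein, had -0.26 ± 0.07 (adjusted p = 0.383), with -0.25 and 0.08 in 2 further probe sets, Hsph1, of the Hsp110 family, -0.12 ± 0.03 (adjusted p = 0.174), and Hspa8, the constitutive Hsp70, -0.06 ± 0.03 (adjusted p = 0.865). Hsph1 ran from 9.93 to 10.04 in CC30 and from 9.82 to 9.99 in CC4. Hspa1b is not named by a single-symbol probe set and is not described by name here.

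**Figure D2:**
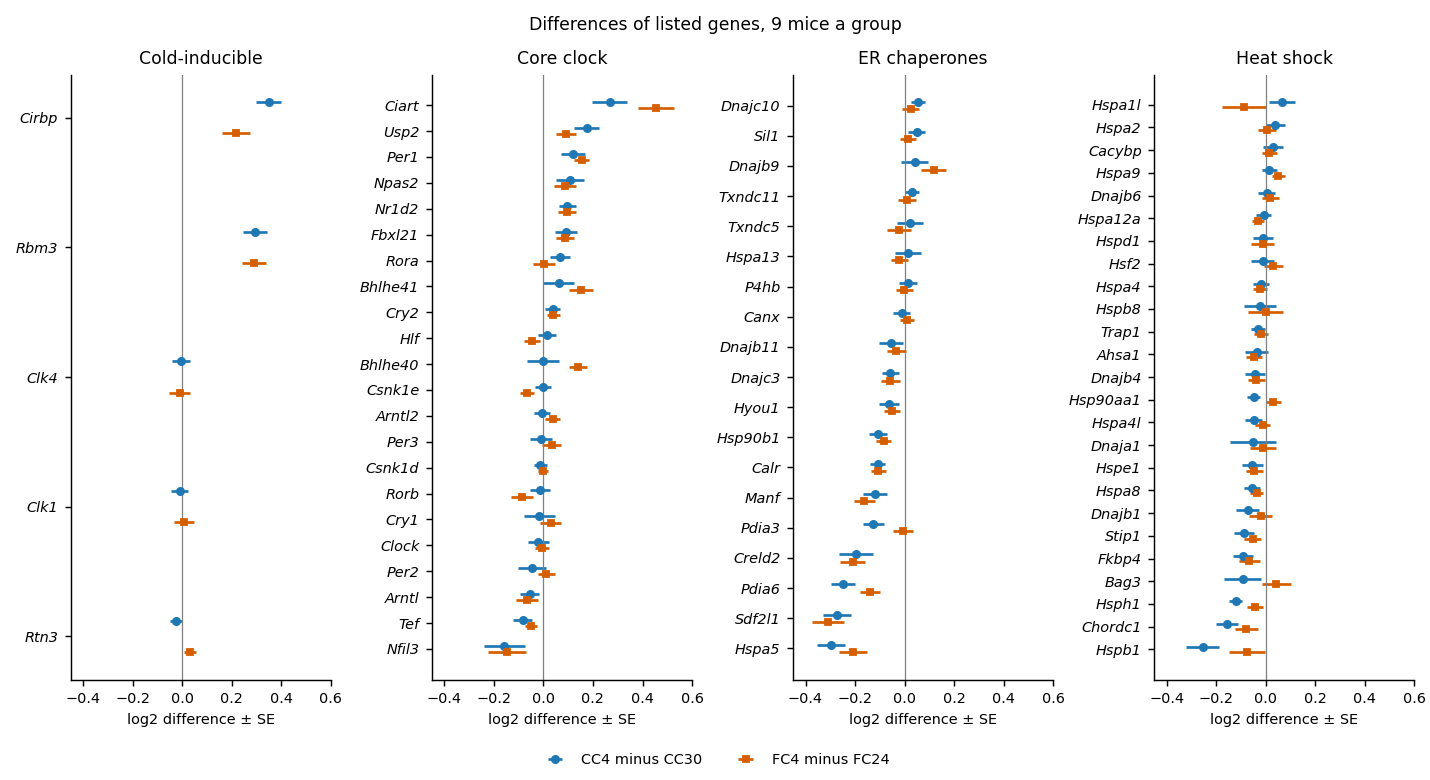
Log2 difference (± SE) of every measured member of 4 gene lists in untrained mice (CC4 minus CC30, circles) and trained mice (FC4 minus FC24, squares), 9 mice a group. Cirbp and Rbm3 lie near 0.3 while Clk1, Clk4 and Rtn3 lie near 0, and ER chaperones from Hspa5 to Hsp90b1 lie on the negative side in both.

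Among vascular genes, Cldn5, which seals endothelial tight junctions, fell. It ran from 8.89 to 9.21 in CC30, with a median of 9.06, and from 8.58 to 8.90 in CC4, with a median of 8.73, and 8 of 9 CC4 mice were below all CC30 mice. It fell by 0.31 ± 0.05 (adjusted p = 0.0202), and by 0.26 without the mice of high choroid plexus markers. In trained mice the difference was -0.23 ± 0.05 (adjusted p = 0.124). Its CC12 median was 8.81. Of the 36 endothelial genes, Cldn5 was the 1 that passed, with 23 below 0, against 48.6% of all probe sets, and a median of -0.029. The per-mouse mean of the endothelial list ran from 7.01 to 7.14 in CC30 and from 6.95 to 7.17 in CC4. Mfsd2a, a lipid transporter of the barrier, had -0.04 ± 0.04 in untrained mice (adjusted p = 0.966), whereas it rose by 0.21 ± 0.03 in trained mice (adjusted p = 0.0228). The test of that contrast gave an unadjusted p = 3.6e-05 and did not pass after adjustment, since the smallest adjusted p of the interaction was 1.0.

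Inmt, which methylates indoleamines, had the largest difference among called probe sets. It ran from 4.46 to 4.98 in CC30, with a median of 4.71, and from 5.05 to 6.14 in CC4, with a median of 5.44, with no overlap. It rose by 0.71 ± 0.12, 1.64-fold (adjusted p = 0.0214), at a low level. The 3 CC4 mice with choroid plexus markers above 6 had 5.49, 5.56 and 6.14, and without the mice of high markers Inmt differed by 0.59 ± 0.09 (unadjusted p = 1.1e-05). In trained mice it rose by 0.53 ± 0.07 (adjusted p = 0.00489), and its CC12 median was 5.14.

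Kdm7a, a histone demethylase, had the smallest p and fell by 0.23 ± 0.03 (adjusted p = 0.0195), from a CC30 range of 8.94 to 9.13 to a CC4 range of 8.70 to 8.86. The difference in trained mice was -0.04 ± 0.03, and the interaction had an unadjusted p of 0.000114 and did not pass after adjustment. A second probe set of Kdm7a had -0.14 and did not pass (adjusted p = 0.316). In CC12 the median of the first was 9.14, above all CC30 mice.

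Other called genes had roles outside these pathways. Pla2g4e, a phospholipase, ran from 5.51 to 5.96 in CC30 and from 6.01 to 6.35 in CC4, and rose by 0.37 ± 0.06 (adjusted p = 0.0202). Its CC12 median of 5.44 was below all CC30 mice. Adam8, a membrane metalloprotease, ran from 6.15 to 6.43 in CC30 and from 5.84 to 6.16 in CC4, and fell by 0.32 ± 0.05 (adjusted p = 0.0202). Sox11, a transcription factor of immature neurons, ran from 7.13 to 7.36 in CC30 and from 6.93 to 7.13 in CC4, and fell by 0.20 ± 0.03 (adjusted p = 0.0256). Ifi203, an interferon-inducible gene, ran from 6.40 to 7.00 in CC30 and from 6.02 to 6.61 in CC4, with a wide spread in both, and fell by 0.47 ± 0.09 (adjusted p = 0.0855). Cemip2, a cell-surface hyaluronidase, rose by 0.26 ± 0.05 (adjusted p = 0.0957) and had 0.03 in trained mice (adjusted p = 0.927). Plpp4, a lipid phosphatase, fell by 0.21 ± 0.04 and Gramd3 by 0.18 ± 0.03 (adjusted p = 0.0967 for both). Of the 10 single-symbol probe sets next in rank by p, Castor2, Vstm5 and Plcd1 did not overlap between groups, which held for 17 of all probe sets (0.0478%). The rank comes from the same arrays. Their differences were -0.16, 0.20 and 0.13, and a second Castor2 probe set had -0.14 (adjusted p = 0.396). Vstm5 had 0.00 in trained mice, whereas the first Castor2 probe set fell there by 0.14 (adjusted p = 0.0631).

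**Figure D3:**
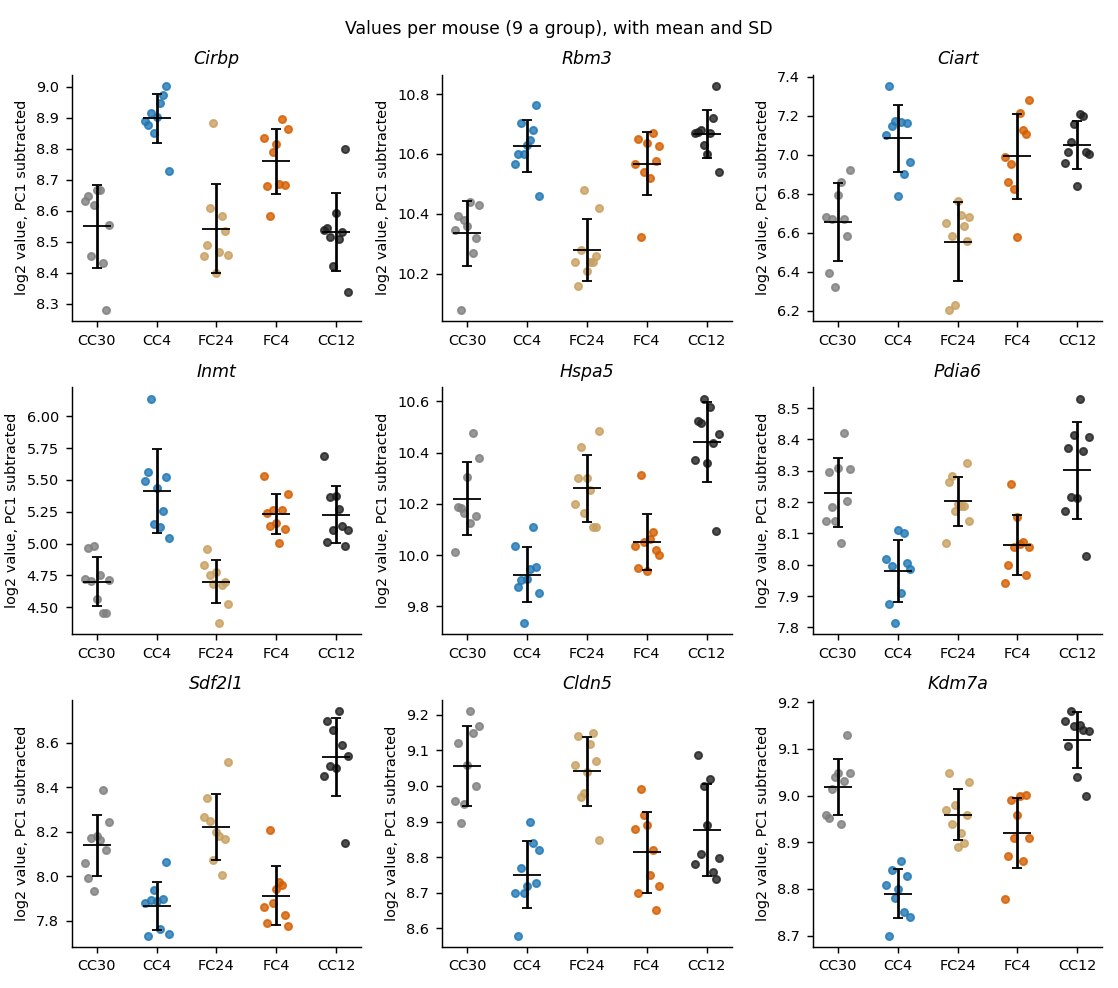
Log2 values (PC1 subtracted) of 9 genes in each of 9 mice a group, with mean and SD; axes do not start at 0. CC4 stands above CC30 for Cirbp, Rbm3, Ciart and Inmt and below it for Hspa5, Pdia6, Sdf2l1, Cldn5 and Kdm7a, and CC12 returns toward or past CC30 for Cirbp and Hspa5 but not for Rbm3.

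Genes that respond to glucocorticoids, which rise before the active phase, and immediate early genes, which follow neuronal activity, were examined as well. Of 21 glucocorticoid-responsive genes, 0 passed, with a median of 0.060, and Sgk1 had 0.08 (adjusted p = 0.721) and Fkbp5 0.07 (adjusted p = 0.909). Of 26 immediate early genes, 0 passed, 20 lay below 0, against 48.6% of all probe sets, and the median was -0.040. Arc had -0.25 ± 0.06 (adjusted p = 0.216) and Bdnf 0.03 (adjusted p = 0.97). Of 19 genes of cholesterol synthesis, 0 passed, with a median of 0.045.

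Markers of other cell types gave 0 calls in CC4 against CC30 for pericytes, meningeal fibroblasts, oligodendrocytes, astrocytes and microglia. The mean of 14 astrocyte markers ran from 9.58 to 9.62 in CC30 and from 9.51 to 9.58 in CC4, a median difference of -0.032 with 13 of the 14 below 0. Of 9 neuron markers, 9 lay below 0, with a median of -0.022, and 0 passed. Over all probe sets, 48.6% lay below 0. The mean of 15 meningeal markers ran from 6.57 to 7.21 and from 6.38 to 7.17, with wide overlap. Oligodendrocyte markers, 13 in all, lay between 8.52 and 8.66 in CC30 and between 8.45 and 8.67 in CC4.

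In trained mice, FC4 against FC24 called 40 probe sets (0.112%), with 28 higher in FC4 (0.0787%) and 12 lower (0.0337%). All 26 probe sets called between CC4 and CC30 (21 distinct profiles) had the same direction there, against 54.7% of all probe sets. Of them, 19 had an unadjusted p under 0.05 and 5 were called. The groups share no array, but the same PC1 was subtracted. The difference between the untrained and trained effects passed for 0 probe sets in limma, with 1442 at an unadjusted p under 0.05, and for 0 with the methods' t-test. A p that misses the threshold does not show that the effects are alike.

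**Figure D4:**
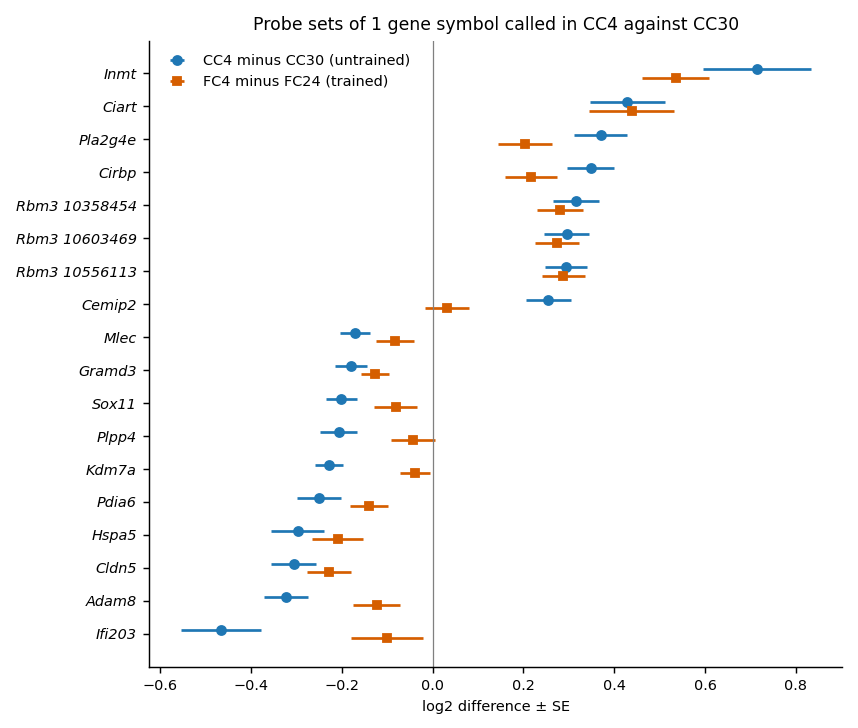
Log2 difference (± SE) of the 18 called single-symbol probe sets in untrained mice (CC4 minus CC30, circles) and trained mice (FC4 minus FC24, squares), 9 mice a group. The points of both comparisons lie on the same side of 0 in every line, and Kdm7a, Cemip2 and Plpp4 lie near 0 in trained mice.

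With both pairs fitted together, 36 arrays in all, 337 probe sets differed between mid and early light (0.948%), 170 higher (0.478%) and 167 lower (0.47%). These include the arrays already described, so they are not independent of them. ER chaperones fell in 7 of 19, namely Hspa5, Sdf2l1, Pdia6, Creld2, Manf, Calr and Hsp90b1, by 0.10 to 0.29, and in 6 of 19 without the mice of high choroid plexus markers, where Hsp90b1 did not pass (adjusted p = 0.237). Creld2, Manf, Slc2a1 and Hif3a were named after their values were seen. Of the heat shock list, Chordc1 and Hsph1 fell, and of the clock list Ciart, Per1, Usp2 and Nr1d2 rose. Without the mice of high choroid plexus markers, Hsph1, Ciart and Per1 passed, whereas Chordc1 (adjusted p = 0.363), Usp2 (adjusted p = 0.271) and Nr1d2 (adjusted p = 0.217) did not. Per1 rose by 0.14 ± 0.03 (adjusted p = 0.0104). Of the glucocorticoid-responsive list 5 rose, led by Hif3a, a hypoxia-inducible factor subunit that rose by 0.42 ± 0.05 (adjusted p = 1.54e-06). In untrained mice alone 0 of this list passed, and Hif3a had 0.28 ± 0.06 (adjusted p = 0.228). In trained mice 3 of the list rose, and Hif3a had 0.56 ± 0.04 (adjusted p = 2.74e-06). For the whole list, the hour and the time since training cannot be told apart in trained mice. With both pairs fitted together but without the mice of high choroid plexus markers, 4 of this list rose. Of the 36 endothelial genes, Cldn5 fell by 0.27 ± 0.03 (adjusted p = 1.94e-05), while Slc2a1, the glucose transporter of the barrier, rose by 0.10 ± 0.03 (adjusted p = 0.0684) and Cd34, a surface sialomucin, by 0.10 ± 0.03 (adjusted p = 0.0873). Without those mice Slc2a1 and Cd34 did not pass (adjusted p = 0.208 and 0.151). Without the mice of high choroid plexus markers, 181 probe sets passed, among them Inmt, Rbm3, Ciart, Cldn5, Sdf2l1, Cirbp, Hspa5 and Pdia6.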

How the data were processed

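Hippocampal RNA of 72 mice was hybridised to Affymetrix Mouse Gene 1.1 arrays. The authors summarised the scans with RMA (background correction, quantile normalization) in Affymetrix Power Tools, and the deposited values are log2 signals for 35556 probe sets. RNA was extracted on the same day and the arrays were run together. Dissections were spread over several days, and the paper states that the mice of a group came from independent experiments. The labels give neither the day nor the experiment, so neither was in the main fit. A block by replicate number was run as an alternative. Arrays were grouped from the sample titles. The first principal component (17.4% of the variance) was subtracted, and groups were compared in limma 3.58.1 (R 4.3.3), tested first on simulated data. The paper reports a larger share for its first component, and it used the locfdr package for local false discovery rates. Those given here come from separately written code, so they are not the paper's own procedure. Samples are separate mice.

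Symbols come from the platform annotation: 21218 probe sets carry 1, 1881 several and 12457 none, and 827 share identical values with another. Members, gene lists, motifs and the rules were chosen with earlier results of these data known. Genes were named if called with 1 symbol, among the 10 next by p, among the 5 smallest p of the cold, clock, heat shock, ER chaperone or endothelial lists, or on a fixed list of clock, cold, chaperone, barrier and activity genes; others were named after their values were seen. Each listed gene was read with its brightest probe set. Markers of 12 cell types were averaged per mouse. The alternatives are given under the dependence on processing. Arrays of all other groups were used for PC1, and CC12 as a description.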

Additional observations from a re-analysis of the deposited data

Results flagged for a closer look

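In groups of 9 mice, the extreme mouse was set against the rest by its gap to the nearest mouse as a share of the group's range. Over 118 groups of values, 9 had a gap above Dixon's critical value, where chance gives about 1 in 20. In CC30, the lowest mouse of Rbm3 had 10.08 (next 10.27) and 9.33 (next 9.52) in 2 probe sets, that of Hsph1 9.93 (next 10.01), and that of Arntl 7.36 (next 7.54). The highest choroid plexus marker mean of CC30 was 6.40 (next 5.49). In CC4, the highest Inmt mouse had 6.14 (next 5.56) and was replicate 3, whose choroid plexus marker mean was 6.90. The highest Ifi203 mouse of CC4 had 6.61 (next 6.31), the lowest Castor2 mouse 8.72 (next 8.84), and the lowest Hspa8 mouse 12.19 (next 12.36).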

How the results depend on the processing

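For CC4 against CC30, the 26 calls became 47 with the first 2 principal components removed, 108 with all 8 groups in 1 fit, 12 with local false discovery rates of the methods' t-test, 17 at an adjusted p under 0.05 and 17 to 26 without 1 mouse. Identical probe sets counted once gave 12, and 0 remained without the mice of high choroid plexus markers, both chosen after seeing the data. For FC4 against FC24, the 40 calls became 62 with 2 components removed, 62 with only single-symbol probe sets, 4 with local false discovery rates, 22 at the stricter threshold, 20 without the mice of high choroid plexus markers and 17 to 69 without 1 mouse (17 without FC24 replicate 6, 69 without FC4 replicate 3). The 337 calls over both pairs became 581, 77, 186 and 181 under the corresponding settings, and 241 to 409 without 1 mouse. The interaction gave 0 under every setting run. Over all probe sets, deviations of same-numbered CC4 and CC30 mice correlated at -0.111 to 0.0983, best with their own number in 2 of 9. Such correlations do not show whether single genes shared variation between same-numbered mice. The titles do not state that the numbers pair mice, so they were not used as pairs in the main fit. However, 10 of the 11 mice with high choroid plexus markers were replicates 1 to 3, and whether the numbers mark experiments or days is not known. With the replicate block, 0, 9 and 205 were called. For CC4 against CC30, the block lowered the SE of some genes, such as Cldn5 (0.049 to 0.040) and Pdia6 (0.049 to 0.037). It raised that of others, such as Ciart (0.083 to 0.099) and Ifi203 (0.088 to 0.103). Each of the 18 named probe sets called in CC4 against CC30 kept its sign in all 35 alternatives. These use the same CC4 and CC30 arrays or parts of them, and some change only the threshold or the adjustment. A kept sign is therefore no independent evidence. Leaving out 1 mouse kept all 18 refits called for Kdm7a, Cirbp, Adam8, Pla2g4e, Cldn5, Inmt, Sox11 and each Rbm3 probe set, but only 2 for Hspa5, 3 for Pdia6 and 4 for Ciart. With local false discovery rates, 14 of the 18 lost their call (rates of 0.112 to 0.458), the cold genes and Inmt among them. Near 0, signs turned for Clk1 (-0.022 to 0.005), Clk4 (-0.017 to 0.015, and 0.002 without the mice of high choroid plexus markers) and Per3 (-0.032 to 0.011), the ranges being without 1 mouse. The cause was not tested for any of these settings. The number of mice limits the differences that can be called.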
